A study of Homo sapiens with 71 samples.

Results

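The genes described here are those of the proteasome: the subunits of its core, of its regulatory particle and of its activators, and the factors that assemble it. They were taken from the table by symbol alone, as every row that begins with PSMA, PSMB, PSMC, PSMD, PSME, PSMF or PSMG and a digit, after dropping symbols that end in P and digits, a form used for pseudogenes. The rule took 53 of 31012 rows, and the pseudogene clause dropped 0. Of the 53, 48 are proteasome genes and 5 are other symbols: 4 antisense RNAs and PSMC3IP, a recombination factor that carries the letters because it binds PSMC3. The cells were HepG2, a human hepatoma line. They had grown for 72 hours on dishes and were then kept for 48 hours in medium made up with water that was filtered after collection at 1 of 16 tributary sites of the Great Lakes, so that field water formed 75% of the medium. Controls received purified water in its place. The sites are named by their labels, BRWI, CRMI, CROH, FRWI, GRMI, GRNY, IHIN, JRMI, LRMN, MAWI, MIWI, MROH, ORNY, RRMI, SRMI and VROH. Each had 4 dishes, except MIWI with 3, and there were 8 control libraries. All dishes were seeded from 1 pool of cells, so p-values measure the spread between dishes of 1 culture, and a change per library cannot tell fewer cells from less RNA per cell. HepG2 stands for the liver only as a tumour line with its own genotype.

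The proteasome is the protease of the cytosol and nucleus that degrades proteins marked with ubiquitin. Its core is a stack of rings of alpha and beta subunits. PSMB5, PSMB6 and PSMB7 carry the active sites, and PSMB8, PSMB9 and PSMB10 take their places after interferon stimulation to form the immunoproteasome. The regulatory particle has a base with a ring of ATPases, encoded by PSMC genes, which unfold the substrate, and a lid of PSMD subunits, which removes ubiquitin. PSME proteins are other caps of the core, PSMF1 binds it as a regulator, and PSMG proteins with some PSMD proteins are chaperones of assembly. In many cells loss of proteasome activity raises the transcription of these genes together through NFE2L1, a transcription factor that binds antioxidant response elements.

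Expression was read with TempO-Seq, which ligates pairs of short probes on a target RNA and counts the products. Totals ran from 8.18 M to 14.5 M (mega) counts over the 8 controls and from 2.91 M to 9.89 M over 62 site libraries, so controls were deeper. The library VROH 2 held 8840 counts and was left out of the fit of 70 libraries. All 13 liver and hepatoma markers looked up averaged at least 1 CPM (counts per M counts of the library), and of 6 immune markers 3 did, LYZ, CD68 and CD14, while PTPRC was at 0. In the libraries CRMI 1 and SRMI 3 many features stood apart from the other dishes of the site. In CRMI 1, 14 of the 36 members tested were lower than the rest of the site by more than 1 on the log2 scale, against 28% of all features. PSMA3, an alpha subunit, was at 1.10 CPM there against a mean of 125 CPM in the other 3 dishes. In SRMI 3, 7 of 36 members were lower by that margin, against 18.1% of all features, and PSMA2 was at 15.6 CPM against 208 CPM. Another 6 members were higher by that margin in SRMI 3, and 0 were in CRMI 1, with no share of all features computed. Counts of calls are therefore given for 70 libraries and again for 68, without these 2.

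Of the 53 symbols, 9 were listed at 0 in every library of the fit, 8 had too few counts to be tested and 36 were tested. A count of 0 over all libraries allows up to 0.00657 CPM, as counting error alone. The 9 were PSMA8, PSMB8, PSMB11, PSMD4, PSMG2 and the antisense RNAs PSMA3-AS1, PSMB8-AS1, PSMD6-AS2 and PSMG3-AS1. The 8 were PSMA7, PSMB10, PSMC6, PSMD1, PSMD2, PSME1, PSME2 and PSMG4. PSMD4, PSMC6, PSMA7, PSMD1 and PSMD2 encode subunits of every complete proteasome. A value at or near 0 here therefore cannot by itself be read as a gene that is off. Where the probes bind is not known here, and the reason for these low values was not tested. Each row is read by its own probes, so levels are not compared between genes.

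The tested genes covered the complex unevenly. They held 6 of 8 core alpha genes, 7 of 7 constitutive core beta genes, 5 of 6 base ATPases and 8 of 8 lid genes. Of the base subunits that are not ATPases, 0 of 3 were tested. Of the activators and the inhibitor 3 of 5 were tested (PSME3, PSME4 and PSMF1), of the assembly factors 5 of 7, and of the immunoproteasome and thymoproteasome beta genes 1 of 4, which was PSMB9.

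The first comparison asked whether surface water as such moved these genes, as the mean of the 16 sites minus the controls. No member passed the test: 0 of 36 had an adjusted p under 0.05 (edgeR quasi-likelihood test, Benjamini-Hochberg over 6943 features), where 0.101% of all features did. At an unadjusted p under 0.05 there were 0 members as well, against 2.94% of features, and DESeq2 called 0 at an adjusted p under 0.05. Without CRMI 1 and SRMI 3 the adjusted count was again 0, against 0.174% of features, and 2 members (5.56%), PSMC3IP and PSMD11, had an unadjusted p under 0.05, near the 4.86% of features that did. The median change over the 36 was 0.00437 on the log2 scale, beside -0.0131 over all features tested. With VROH 2 restored, again 0 members passed, against 0.0576% of features.

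The precision of these values differed among members. The 95% interval of the change lay within 0.5 of 0 on the log2 scale for 30 of 36 members, and within 0.25 for 13 of 36 (18 of 36 without the 2 libraries). PSMB2, a beta subunit without an active site, had an interval from -0.13 to 0.13. PSMB4, another such subunit, had one from -0.09 to 0.16, and PSMD14, the lid enzyme that cuts ubiquitin off the substrate, one from -0.07 to 0.21. PSMB6 and PSMG1 were far less certain, with intervals from -0.84 to 0.79 and from -0.80 to 0.95. These intervals hold changes of 1.5-fold in either direction.

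**Figure D1:**
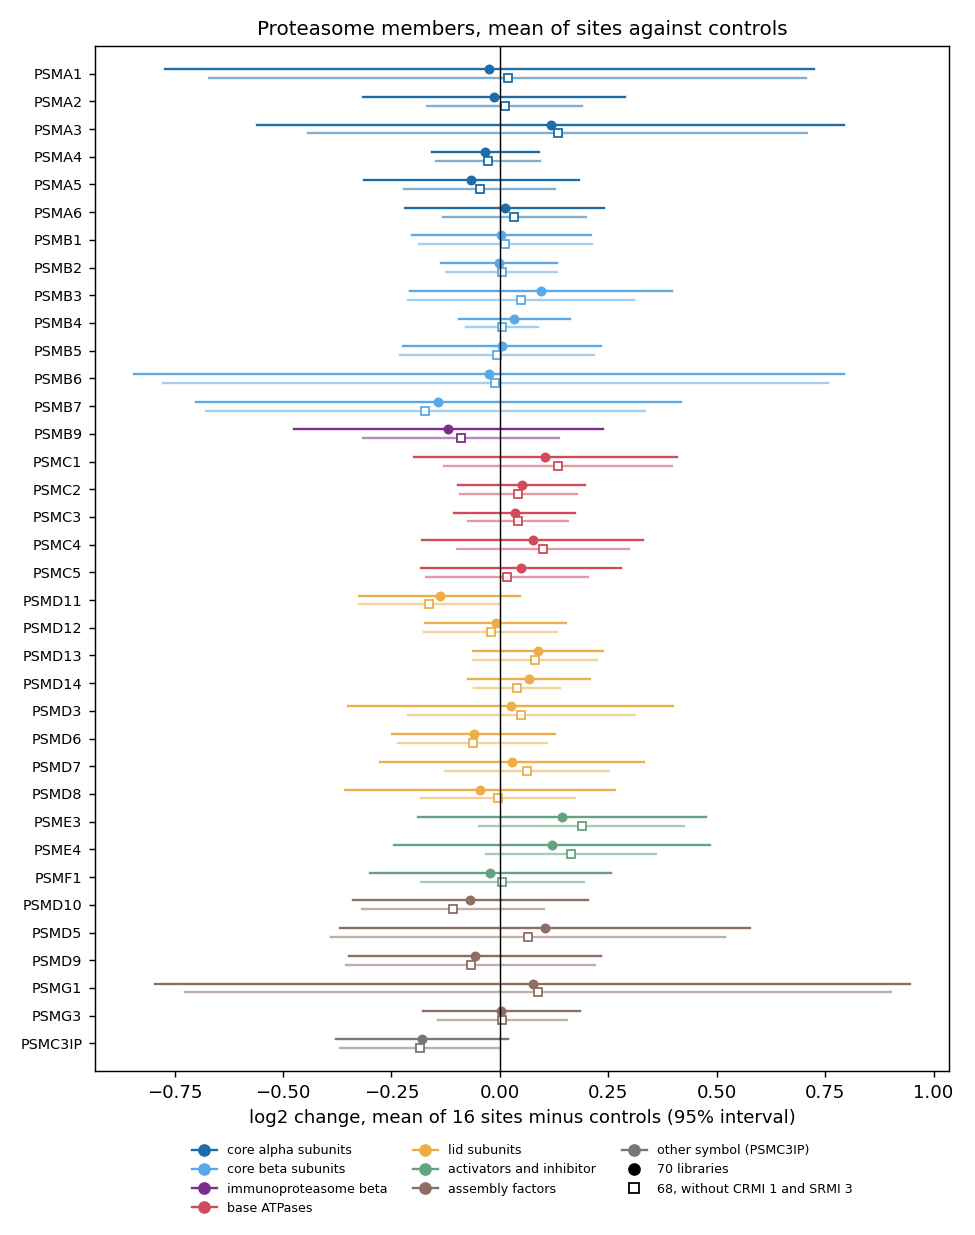
Fitted log2 change of each of the 36 tested members at the mean of 16 sites against the controls, with its 95% interval, coloured by role; filled circles are the fit of 70 libraries and open squares the fit of 68. Every interval of the 70-library fit holds 0, and PSMA1, PSMA3, PSMB6, PSMB7 and PSMG1 have the widest.

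By role, the 5 base ATPases were all above 0, with values from 0.03 to 0.11 on the log2 scale and a median of 0.0506, and none passed the test. The 6 core alpha genes had a median of -0.0192, the 7 core beta genes 0.00367 and the 8 lid genes 0.00779. The 3 highest values were those of PSME3, a nuclear activator of the core, at 0.14 (SE 0.17), of PSME4, a large activator that opens the core without ATP, at 0.12 (SE 0.18), and of PSMA3, at 0.12 (SE 0.34). The 3 lowest were PSMC3IP at -0.18 (SE 0.10), PSMB7 at -0.14 (SE 0.28) and PSMD11, a lid subunit, at -0.14 (SE 0.09). Each of these values was under 2 of its standard errors from 0.

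The active-site genes were measured at low counts. PSMB5, the chymotrypsin-like subunit, ranged over the controls from 4.17 to 7.87 CPM with a median of 6.85, and its change at the mean of sites was 0.01 (SE 0.11). PSMB6, the caspase-like subunit, ranged from 3.57 to 21.1 CPM with a median of 8.63, and its change was -0.03 (SE 0.41). PSMB7, the trypsin-like subunit, ranged from 1.43 to 3.59 CPM with a median of 1.90. The control dishes alone thus spread several-fold for PSMB6, and the interval of PSMB5 is the one that bears on the active sites, from -0.22 to 0.23.

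Of the immunoproteasome genes, PSMB8 was listed at 0. PSMB10 had 7 counts over all libraries, and the caps PSME1 and PSME2, which accompany the immunoproteasome, had 131 and 59. PSMB9 was well measured, with 20.3 to 43.7 CPM over the controls and a median of 36.0 CPM. Its change at the mean of sites was -0.12 (SE 0.18). PSMB9 (chr6:32844136-32859585, plus strand) overlaps PSMB8-AS1 on the same strand in the GENCODE release 29 annotation of GRCh38, and where the probes bind is not known here, so the row cannot be assigned to 1 of these with certainty.

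The next comparison set every site by itself against purified water. Over the 16 comparisons, 6 of 576 member and site pairs passed (1.04%), where 1.93% of all feature and site pairs did, so members passed at no higher rate than other features. Without CRMI 1 and SRMI 3, 14 of 576 passed (2.43%), against 4.09% of all. With VROH 2 restored, 3 of 576 passed (0.521%), against 0.883%. The member and site pairs called also changed between these fits: 3 of the 6 pairs were among the 14.

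PSMA4 was the core gene with the most stable difference between sites. It encodes an alpha-ring subunit and lies at chr15:78540405-78552419 on the plus strand. Its promoter is shown because it is the member whose level separated sites most firmly, beside those of PSMB4 and PSMD14, whose levels took other courses over the same sites. The sequences are from RefSeq on GRCh38.p14, 250 bases before to 50 after the RefSeq start, at chr15:78540536-78540835, chr1:151399323-151399622 and chr2:161308175-161308474, all on the plus strand. Gene spans are given from GENCODE release 29, whose starts differ from those of RefSeq. The PSMA4 and PSMD14 windows lie within the GENCODE spans of these genes, and that of PSMB4 holds the GENCODE start. Capitals mark matches on either strand to TGACNNNGC, the core of the antioxidant response element, and to CCAAT, the box bound by NF-Y.
PSMA4: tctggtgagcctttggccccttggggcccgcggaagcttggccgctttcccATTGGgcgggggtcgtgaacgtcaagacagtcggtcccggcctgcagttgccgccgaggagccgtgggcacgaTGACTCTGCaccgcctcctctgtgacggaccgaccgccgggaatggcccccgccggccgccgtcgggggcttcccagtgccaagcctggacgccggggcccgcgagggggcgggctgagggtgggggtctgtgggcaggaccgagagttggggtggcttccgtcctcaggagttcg
PSMB4: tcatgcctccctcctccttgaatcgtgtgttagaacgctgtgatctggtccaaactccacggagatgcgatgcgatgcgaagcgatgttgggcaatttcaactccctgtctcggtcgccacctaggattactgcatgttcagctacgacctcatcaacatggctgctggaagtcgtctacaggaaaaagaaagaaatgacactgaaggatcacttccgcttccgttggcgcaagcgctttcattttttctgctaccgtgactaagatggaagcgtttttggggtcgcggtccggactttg
PSMD14: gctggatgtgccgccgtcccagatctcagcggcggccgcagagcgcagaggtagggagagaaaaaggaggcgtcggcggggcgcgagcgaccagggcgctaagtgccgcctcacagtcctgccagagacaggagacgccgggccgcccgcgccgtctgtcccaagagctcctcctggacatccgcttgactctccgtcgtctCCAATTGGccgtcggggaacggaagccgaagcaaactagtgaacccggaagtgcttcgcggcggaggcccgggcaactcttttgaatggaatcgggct
The PSMA4 window holds 1 match to TGACNNNGC and 1 to CCAAT, that of PSMD14 holds 2 overlapping matches to CCAAT, and that of PSMB4 holds 0 of either. Promoters were given for 47 of the 53 symbols and 42 of the 48 proteasome genes. TGACNNNGC was in 14 of these 42 (33.3%), beside 13.3% of all 35116 promoters of the same length, and CCAAT was in 18 of 42 (42.9%), beside 34.6%. A match describes letters and not a bound site.

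At LRMN the 4 dishes had 56.3, 56.3, 62.7 and 49.5 CPM of PSMA4, while the controls ranged from 63.2 to 79.1 CPM with a median of 73.4. All 4 dishes were under the lowest control. The log2 change was -0.38 (SE 0.10, adjusted p = 0.0133, edgeR), where 8.64% of all features passed at LRMN. Without dish 4 of LRMN it was -0.31 and no longer passed (adjusted p = 0.0853, edgeR). PSMA4 at LRMN did not pass with all 71 libraries either. In the fit of 68 libraries PSMA4 was also lower at CROH (log2 change -0.32, SE 0.10, adjusted p = 0.0335, edgeR), where 2 of 36 members and 10.3% of features passed, with dishes at 69.8, 59.6, 49.3 and 55.4 CPM. The highest of those lay within the control range.

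PSMB1, a beta subunit without an active site (chr6:170535117-170553341, minus strand), ran the same way. At LRMN the dishes had 83.8, 75.9, 88.3 and 83.6 CPM and at CROH 107, 71.3, 63.0 and 83.7 CPM, against 97.5 to 138 CPM and a median of 114 CPM in the controls. The LRMN dishes were all under the lowest control, and 3 of 4 CROH dishes were. In the fit of 68 libraries the changes passed the test at both sites, at -0.49 (SE 0.16, adjusted p = 0.0346, edgeR) and -0.52 (SE 0.16, adjusted p = 0.0371, edgeR).

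PSMB4, of the same beta ring (chr1:151399534-151401944, plus strand), ran the other way. At LRMN the dishes had 866, 1069, 925 and 1003 CPM and at GRNY 851, 1061, 889 and 1000.1 CPM. The controls ranged from 705 to 877 CPM with a median of 795 CPM. At each site 3 of 4 dishes lay above the highest control. In the fit of 68 libraries PSMB4 was higher by 0.28 at LRMN (SE 0.07, adjusted p = 0.00213, edgeR) and by 0.26 at GRNY (SE 0.07, adjusted p = 0.0131, edgeR), where 5 and 4 of 36 members passed, beside 17.5% and 9.17% of features. Neither change passed with 70 libraries.

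The ratio of PSMB4 to PSMA4 within a library, chosen after the values were seen and so given with no test, does not depend on the scaling between libraries. Its log2 value was 3.45 ± 0.17 (SD, n = 8) in the controls, with a range from 3.16 to 3.68. At LRMN it was 4.10 ± 0.22 (SD, n = 4) and at GRNY 3.95 ± 0.06 (SD, n = 4), and all 8 dishes lay above the highest control. The 4 JRMI dishes (3.89 ± 0.17, SD) lay above it too, the lowest at 3.69. The means at FRWI and CROH were 3.89 and 3.85. The log2 ratio was lowest at MAWI (3.13 ± 0.24), GRMI (3.13 ± 0.34) and IHIN (3.14 ± 0.11), each as mean ± SD with n = 4.

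**Figure D2:**
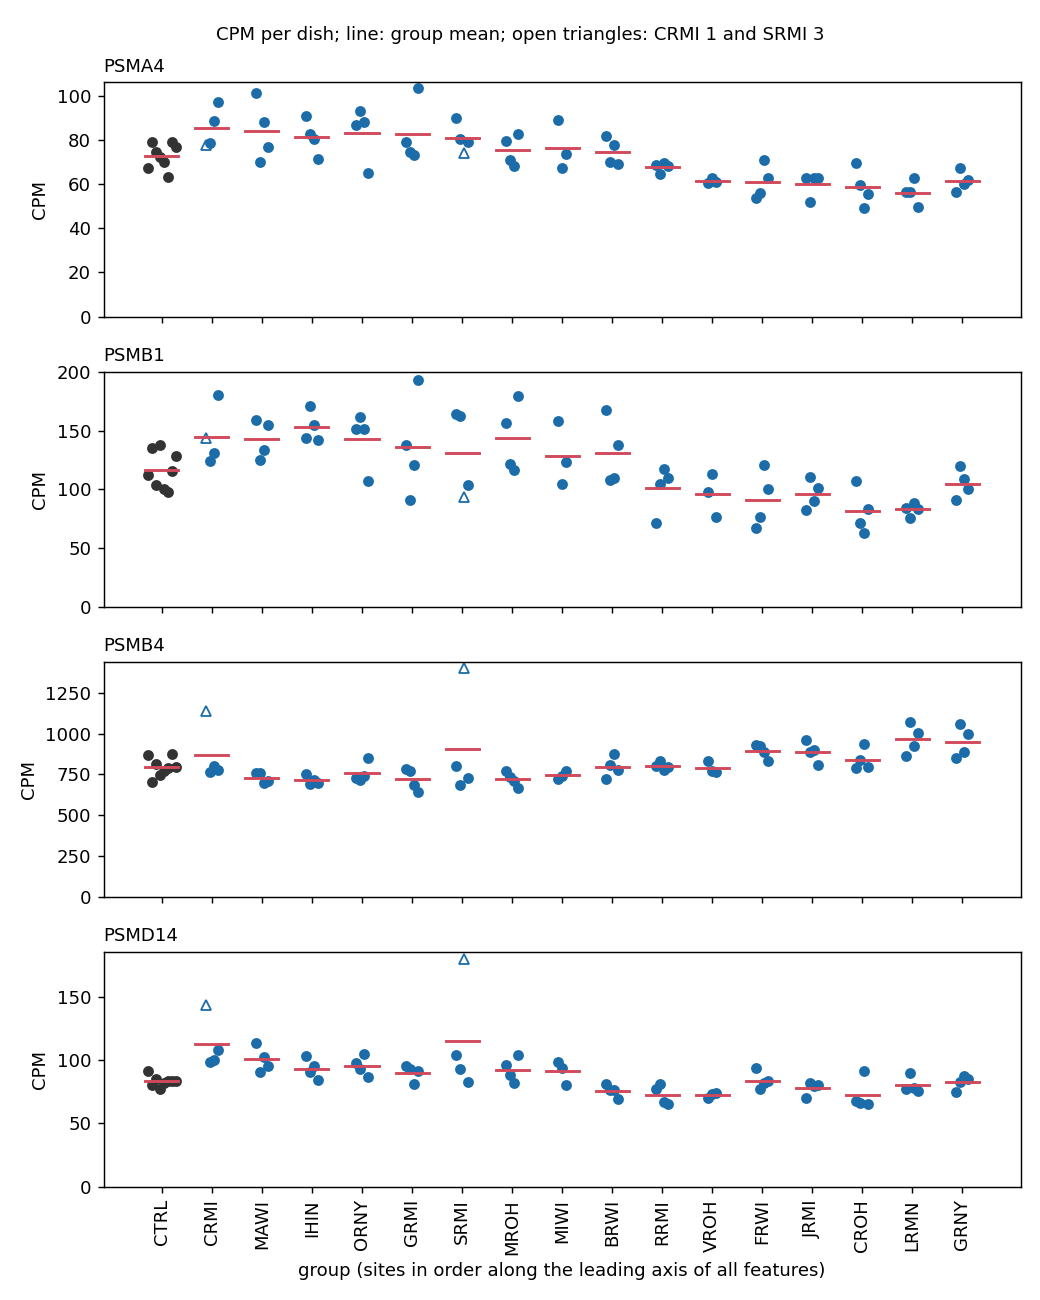
CPM of PSMA4, PSMB1, PSMB4 and PSMD14 in each dish of the controls (grey) and the 16 sites (blue), with the group mean as a red line and the libraries CRMI 1 and SRMI 3 as open triangles. PSMA4 and PSMB1 fall from the left to the right of the site order while PSMB4 rises, and the highest PSMD14 and PSMB4 values are those of the open triangles.

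PSMD14 (chr2:161308038-161411717, plus strand) passed at CRMI and SRMI in the fit of 70 libraries, and at neither in a model of that site and the controls alone. The CRMI dishes had 144, 98.1, 99.5 and 108 CPM, and the controls 76.6 to 91.4 CPM with a median of 83.0 CPM. All 4 CRMI dishes were above the highest control, and the change was 0.44 (SE 0.11, adjusted p = 0.00991, edgeR), where 7.32% of all features passed at CRMI. Without the first dish, 144 CPM, it was 0.30 and did not pass on its own (adjusted p = 0.131, edgeR), but it passed in the fit of 68 libraries (0.30, SE 0.09, adjusted p = 0.0306, edgeR; 8.01% of features). The SRMI dishes had 104, 93.1, 179 and 82.1 CPM, and the change of 0.46 (SE 0.11, adjusted p = 0.0111, edgeR; 3.17% of features) came down to 0.16 without the third (adjusted p = 0.56, edgeR). With 68 libraries MAWI was higher by 0.27 (SE 0.08, adjusted p = 0.0362, edgeR; 4.71% of features), with dishes from 90.2 to 113 CPM.

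The other calls at CRMI did not hold without its first dish. PSMC2, a base ATPase, had 97.2, 67.3, 64.1 and 65.2 CPM there and 49.2 to 63.6 CPM in the controls, with a change of 0.38 (SE 0.12, adjusted p = 0.0342, edgeR). PSMD6, a lid subunit, had 24.5, 16.6, 16.2 and 15.8 CPM against 11.2 to 15.7 CPM, with a change of 0.48 (SE 0.15, adjusted p = 0.0403, edgeR). All CRMI dishes were above the highest control for both genes. Without CRMI 1 the changes were 0.22 (adjusted p = 0.315, edgeR) and 0.29 (adjusted p = 0.314, edgeR), and they did not pass. Leaving out control 5 also ended both calls, and leaving out control 6 or control 7 ended that of PSMD6. With PSMD14 these were 3 of 36 members at CRMI (8.33%), near the 7.32% of all features there.

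PSMC3IP, which the symbol rule takes although it is no proteasome gene, gave the firmest call of any single site. At LRMN it had 36.3, 29.3, 32.0 and 44.6 CPM, against 54.8 to 73.5 CPM and a median of 64.1 CPM in the controls. All LRMN dishes were below the lowest control, the change was -0.85 (SE 0.16, adjusted p = 0.000473, edgeR), and it passed whichever of the 70 libraries was left out. With PSMA4 this made 2 of 36 members at LRMN (5.56%), under the 8.64% of all features there.

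PSMB9 was lowest at GRNY, with dishes at 27.9, 8.68, 17.4 and 22.2 CPM, of which 2 were under the lowest control value of 20.3 CPM. In the fit of 68 libraries the change was -0.89 (SE 0.19, adjusted p = 0.00517, edgeR). At LRMN it was -0.63 (SE 0.19, adjusted p = 0.0176, edgeR). Neither passed with 70 libraries. With 68 libraries the lid genes PSMD7 (-0.49, SE 0.15, adjusted p = 0.0388, edgeR) and PSMD8 (-0.46, SE 0.15, adjusted p = 0.0406, edgeR) were also lower at GRNY. PSME3 was higher at ORNY by 0.64 (SE 0.19, adjusted p = 0.0318, edgeR; 4.09% of features), with dishes at 9.34, 8.93, 13.4 and 7.12 CPM against 4.32 to 8.20 CPM in the controls.

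The last comparison left the controls out and asked whether members differed among the 16 sites. Of 36 members 10 passed (27.8%, edgeR F test, adjusted p under 0.05), where 37.8% of all features passed. Without CRMI 1 and SRMI 3, 18 of 36 passed (50%), against 49.8% of features. With all 71 libraries 7 of 36 passed (19.4%), against 29.8%. The share of members was below that of all features in the fits of 70 and 71 libraries and near it in the fit of 68. Of the 10, 9 were among the 18, the exception being PSMC2.

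The smallest adjusted p in the F test was that of PSMA4 (7.07e-07, edgeR), followed by PSMD14 (2.9e-05) and PSMB1 (3.31e-05). PSMC3IP came next (0.000378, edgeR), then PSMA1, an alpha subunit (0.00287), and PSMB4 (0.00538). PSMB2, the assembly chaperone PSMD10, PSMB9 and PSMC2 made up the rest. The mean level of PSMA4 ran from 56.2 CPM at LRMN to 85.5 CPM at CRMI, with the controls between them at 72.8 CPM. That of PSMB1 ran from 81.3 CPM at CROH to 153 CPM at IHIN, with the controls at 116 CPM. With the controls placed among the sites, neighbours in these orders differed by less than the larger SD of their dishes, except PSMA4 at RRMI (67.8 CPM ± 2.19, SD, n = 4) and VROH (61.5 CPM ± 0.963, SD, n = 3). PSMA1 had 508 counts in all, with a median of 1.00 CPM in the controls and 0 in 2 of 4 GRNY dishes, so its fold changes rest on few reads.

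The sites can be placed in an order by the leading axis of their means over all 6916 features in the fit of 68 libraries, members included, which held 56.8% of the variance between site means. CRMI, MAWI and IHIN stood at 1 end and CROH, LRMN and GRNY at the other. The correlations that follow are over 16 site means that share these libraries, and describe them only. Of 36 members, 16 correlated with the axis below -0.7 (highest toward CRMI) and 7 above 0.7 (highest toward GRNY). That was 63.9% of members, beside 48.5% of all features. Of all features, 26.2% were below -0.7 and 22.3% above 0.7. At the first end stood PSMA1 (-0.98), PSMD8 (-0.97), PSMA4 (-0.97), PSMC4 (-0.96), PSMB9 (-0.96), PSMD7 (-0.94) and PSMB1 (-0.93). At the other stood PSMB4 (0.92), PSMD10 (0.90), PSMC5 (0.79), PSMB3 (0.76), PSMA6 (0.73), PSMB5 (0.72) and PSMB7 (0.71). Alpha, beta and base ATPase genes stood at both ends. The lid genes past 0.7 in size, PSMD7, PSMD8 and PSMD14, were all at the first end. The mean log2 depth of the sites had a correlation of 0.36 with the axis, and its part in these values was not tested.

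**Figure D3:**
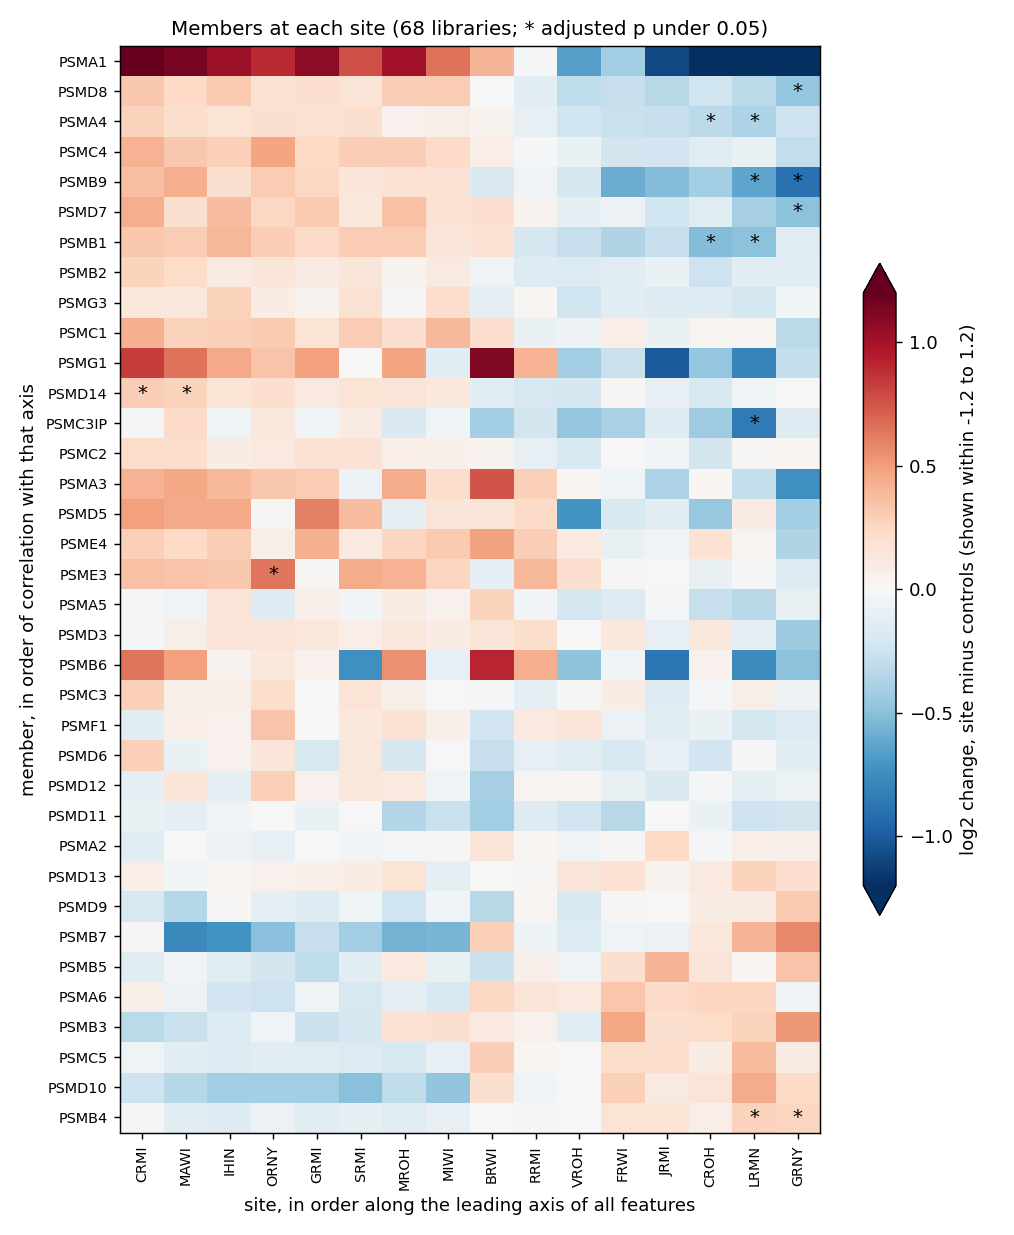
Fitted log2 change against the controls of the 36 tested members (rows, ordered by their correlation with the leading site axis) at each of 16 sites (columns, ordered along it), in the fit of 68 libraries, with colours limited to 1.2 in either direction and asterisks at the 14 calls. Rows at the top run from red to blue and rows at the bottom from blue to red, and 9 of the 14 asterisks stand at LRMN and GRNY.

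Members also differed in how far dishes of 1 group spread. The SD between dishes, on the log2 CPM scale over 68 libraries, had a median of 0.26 over members and 0.30 over all features. It was smallest for PSMB4 (0.10) and PSMD14 (0.12), which were under the 3rd percentile of all features. PSMG1 (1.16), PSMB6 (1.14) and PSMA3 (0.91) were above the 97th. At GRNY the dishes of PSMA3 had 75.4, 9.24, 11.9 and 129 CPM and those of PSMB6 had 4.72, 1.70, 1.12 and 21.3 CPM. The same 2 dishes were low in both genes. PSMG1, a chaperone of alpha-ring assembly picked after its values were seen, had 1.05, 0, 0.124 and 8.81 CPM there. Over the deviations of 68 libraries from group means, PSMB6 and PSMG1 had r = 0.87, PSMB6 and PSMA3 r = 0.86, and PSMG1 and PSMA3 r = 0.81.

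These 3 genes followed the leading axis of the deviations between dishes over all features, which held 27.3% of that variance, with r of 0.98 (PSMA3), 0.85 (PSMB6) and 0.81 (PSMG1). Together with PSMD3 (0.80), 4 of 36 members passed 0.7 on it, and 8.75% of all features did. PSMB9, PSMD7 and PSMD8 had r of 0.68, 0.59 and 0.14 with this axis. Its part in their calls at GRNY was not tested. Over all 630 pairs of members, which include genes at both ends of the site axis, the median r was 0.00785 between dishes and 0.26 between site means. Between site means, 117 pairs had r above 0.7 and 61 below -0.7. These medians and counts have no values for pairs of all features beside them, so they describe the members only. Of all features, 48.5% passed 0.7 in size on the site axis.

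**Figure D4:**
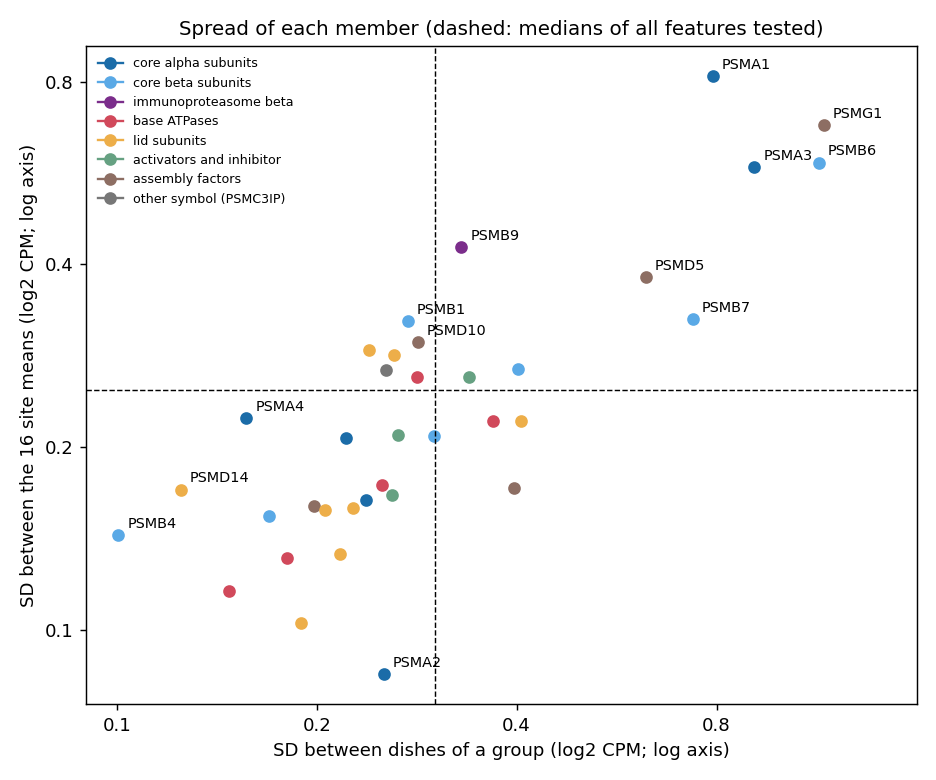
SD between dishes of a group (x axis) and SD between the 16 site means (y axis) of each tested member, both in log2 CPM on log axes, coloured by role, with dashed lines at the medians of all features. PSMB4 and PSMD14 lie at the left, and PSMA1, PSMA3, PSMB6 and PSMG1 at the upper right, where both spreads are large.

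Genes that act with the proteasome but carry other symbols were counted in 5 lists. At the mean of sites 0 genes passed in any list. Among sites, 5 of 9 tested genes of the NFE2L1 list passed (MAFF, MAFG, MAFK, NFE2L1 and NFE2L2), 2 of 10 of antigen presentation (HLA-B and HLA-C), 1 of 7 of the maturation and accessory factors (the importin IPO9) and 0 of 9 of the COP9 signalosome, a complex related to the lid. The share of all features was 37.8%. Without CRMI 1 and SRMI 3 the counts were 6 of 9 (NFE2L1), 4 of 10 (antigen presentation), 3 of 7 (maturation) and 2 of 9 (COP9), beside 49.8% of features. The lists are small and were read with no set test.

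NFE2L1 was lower at CRMI, with a mean of 226 CPM ± 95.4 (SD, n = 4) against 408 CPM ± 34.9 (SD, n = 8) in the controls. The change was -0.86 (SE 0.18, adjusted p = 0.00219, edgeR), and without CRMI 1 and SRMI 3 it was -0.58 (adjusted p = 0.0204, edgeR). At CROH it was 548 CPM ± 21.4 (SD, n = 4), and the change of 0.43 passed in the fit of 68 libraries only (adjusted p = 0.0401, edgeR). MAFK, a small MAF partner of NFE2L1, was lower at CRMI (-0.53, SE 0.13, adjusted p = 0.00967, edgeR) and higher at CROH (0.52, SE 0.13, adjusted p = 0.0118, edgeR). PSMA4, whose window holds a match to the element, had its mean at 85.5 CPM at CRMI and 58.5 CPM at CROH, and no relation between these genes was tested. IPO9 was lower at LRMN (log2 change -1.84, SE 0.52, adjusted p = 0.0155, edgeR), at low counts. Its LRMN dishes ran from 0.982 to 2.50 CPM and the controls from 2.29 to 8.87 CPM, so the ranges overlapped. POMP, the chaperone that matures the core, had 1463 CPM ± 134 (SD, n = 8) in the controls, a change of 0.01 (SE 0.10) at the mean of sites, and passed at no site in either fit.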

How the data were processed

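The table of estimated counts per gene symbol was deposited by the authors. Salmon and GRCh38 are named in the submitters' processing notes, without versions. The table used here holds 31012 complete rows in symbol order from A1BG to RAI1-AS1. The last row is incomplete and was left out, so genes later in the alphabet were not analysed here. In libraries of the fit, 92.1% to 94.3% of low values lay within 0.02 of a whole number of reads. Columns were matched to labels by name. For MIWI and 1 GRMI column the name gives the site and not the dish.

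Rounded values went into edgeR 4.0.16 under R 4.3.3 (TMM, filterByExpr with a minimum count of 10, 17 group means, quasi-likelihood F test, Benjamini-Hochberg within a comparison, adjusted p under 0.05). A library needed 100000 counts, which left out VROH 2 and kept 70. CPM use the TMM-scaled total. Standard errors and 95% intervals come from the fitted model. The comparison at the mean of sites was also run on simulated counts, in which each change was shared by all sites. That run does not bear on single sites or on differences among sites. Alternatives were 71 or 68 libraries, DESeq2 1.42.0, RLE scaling, no filter, a replicate block, compared groups alone, thinned counts and leaving out each library. The protocol describes 16 control dishes, and 8 control libraries were analysed.

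Members, lists and alternatives were chosen with earlier results of these data known. Named members were those called at a site, the 6 smallest p in the F test, the 3 largest rises and falls at the mean of sites, and the active-site and immunoproteasome genes. PSMB2, PSMD10, PSMG1, PSMD3, PSMD7, PSMD8, and the members named for their place on an axis, were picked after their values were seen. Replicate numbers did not pair samples: deviations of same-numbered libraries had a median r of 0.016, against -0.003 for other pairs. The result of 1 of the 5 gene lists among sites is not reported here.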

Additional observations from a re-analysis of the deposited data

Results flagged for a closer look

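In 36 groups of 4 to 8 dishes, of members named above, 3 held a dish far from the others by Dixon's criterion, where chance gives about 1 in 20. PSMB9 in control 1 was 20.3 CPM, with the nearest control at 33.5 CPM. PSMC2 in CRMI 1 was 97.2 CPM, with the nearest dish at 67.3 CPM. PSMD6 in CRMI 1 was 24.5 CPM, with the nearest at 16.6 CPM.

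The change against the controls differed between sites for 10 of 36 members (27.8%), by the edgeR F test among the 16 sites. Of all features, 37.8% passed that test, so members did so at no higher rate. The adjusted p was 7.07e-07 for PSMA4, 2.9e-05 for PSMD14, 3.31e-05 for PSMB1 and 0.000378 for PSMC3IP. It was 0.00287 for PSMA1, 0.00538 for PSMB4, 0.00882 for PSMB2, 0.0108 for PSMD10, 0.0216 for PSMB9 and 0.0494 for PSMC2. For PSMC2 it rose above 0.05 in 52 of 70 fits that left out 1 library.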

How the results depend on the processing

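The count of 0 members at the mean of sites held under every alternative run and whichever of the 70 libraries was left out. The compared groups alone were not run for it, since it compares all groups. The 6 member and site pairs became 14 without CRMI 1 and SRMI 3, 3 with all 71 libraries, 3 with no filter on low counts, 2 with the replicate block and 12 with the compared groups alone. Of the 6 pairs, those 12 held only PSMA4 and PSMC3IP at LRMN, as did the replicate block, so that the calls at CRMI and SRMI were lost under both. With all 71 libraries, PSMA4 at LRMN, PSMC2 at CRMI and PSMD14 at SRMI were lost. With no filter, PSMC2 and PSMD6 at CRMI and PSMD14 at SRMI were lost. Leaving out 1 library gave 4 to 9. Shares of all features are given above only for the fits of 70 libraries, of all 71, and without CRMI 1 and SRMI 3. Counts under the other settings have no such share beside them, so they describe the members only. The 10 members that differed among sites became 18, and the 13 pathway genes called over all 5 lists 21, without CRMI 1 and SRMI 3. Leaving out 1 library gave 9 to 14 and 12 to 17. The cause was not tested. PSMB7 at the mean of sites turned from -0.14 to 0.24 with the replicate block and ranged from -0.21 to 0.00463 when 1 library was left out (highest without control 5), and was called in none of these. PSMB9 missed the threshold of the F test without GRNY 3 (adjusted p = 0.0511, edgeR). The replicate block used numbers that do not pair the samples, and for MIWI and GRMI those of the column names. Of the 6 pairs, all were called by DESeq2 and with RLE scaling, and 5 after thinning to the shallowest library.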
